A study of Caenorhabditis elegans with 3 samples.

Results

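The genes egl-9, hif-1, vhl-1, rhy-1 and cysl-1 control the hypoxia response of the nematode Caenorhabditis elegans, and they were examined in a map of where the chromatin regulator EGL-27 bound. They are 5 of 19985 annotated protein-coding genes and were selected by name as the core of a known pathway, after the binding region beside egl-9 was known to be among the highest in the data. Whether a gene had a listed region, and the signal of that region, are therefore given as description without a test. A region was assigned to a gene when its summit, the point of highest signal, lay in the gene body or within 5 kb of it.

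Region lists came from chromatin immunoprecipitation sequencing (ChIP-seq) of 3 biological replicates of whole first-stage (L1) larvae, mixed in sex and of unstated age. All 3 came from strain OP177, which carries the unc-119(ed3) allele and the transgene wgIs177, so every replicate expressed EGL-27 with a GFP-FLAG tag at the carboxy terminus. The labels give no second genotype, treatment or oxygen level, do not name the promoter of the transgene, and give no untagged strain as a group. Binding was measured in whole animals, so the cells in which a region was bound are not given by these lists.

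In normal oxygen, the prolyl hydroxylase EGL-9 modifies the transcription factor HIF-1, and VHL-1, the recognition subunit of a ubiquitin ligase, then directs HIF-1 to degradation. RHY-1, a membrane protein related to acyltransferases, and CYSL-1, a protein of the cysteine synthase family, act upstream: RHY-1 restrains CYSL-1, and CYSL-1 binds EGL-9 and blocks it when hydrogen sulfide accumulates. EGL-27 carries a GATA-type zinc finger, resembles the MTA proteins of NuRD chromatin remodelling complexes and is known for roles in larval patterning and stress survival.

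Each list gives a signal per region, which is the authors' measure of its height over a control, in a unit they do not name. The list that passed the authors' irreproducible discovery rate (IDR) threshold held 524 peaks, and these were the 524 highest regions of the pooled list of 30000. The replicate lists, which include background regions, held 30000, 30000 and 13516 regions, so the list of replicate 3 was shorter. Their median signals were 3.44, 5.21 and 3.18 in replicates 1, 2 and 3, so signals were read within a list and not averaged over replicates. Read depth is unknown, since the lists hold no counts.

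EGL-27 peaks lay beside 3 of the 5 genes. An IDR summit was found upstream of egl-9, hif-1 and cysl-1, and none within 5 kb of rhy-1 or vhl-1, while 1214 protein-coding genes had one, or 6.07% of all. The egl-9 peak had a pooled signal of 101.8 and ranked 6 of 524, the cysl-1 peak had 63.3 and ranked 58, and the hif-1 peak had 36.4 and ranked 308. The hif-1 peak was the lowest of these, above the lowest signal of the IDR list, 28.9. The highest pooled region near any of the 5 genes that did not reach the IDR list was also at hif-1, at 24.0. The outermost assigned summit was that of cysl-1, 4226 bp from its gene, and the nearest IDR summit beyond a 5 kb window was 18.5 kb upstream of hif-1, with a signal of 29.7.

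The 3 summits can be read against the DNA beneath them. The 201 bases around each summit are shown because repeats of GAGAGA, letters that were common under EGL-27 peaks, were present at egl-9 and hif-1 and absent at cysl-1. Sequences are from the RefSeq genome of build ce11, on the plus strand, and capitals mark GAGAGA on either strand. The egl-9 window is chrV:10466712-10466912, the hif-1 window chrV:20778308-20778508 and the cysl-1 window chrX:9958659-9958859.
egl-9: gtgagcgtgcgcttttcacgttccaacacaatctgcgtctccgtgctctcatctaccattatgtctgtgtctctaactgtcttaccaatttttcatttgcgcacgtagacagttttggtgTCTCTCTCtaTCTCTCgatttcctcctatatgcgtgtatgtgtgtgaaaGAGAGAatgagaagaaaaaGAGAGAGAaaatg
hif-1: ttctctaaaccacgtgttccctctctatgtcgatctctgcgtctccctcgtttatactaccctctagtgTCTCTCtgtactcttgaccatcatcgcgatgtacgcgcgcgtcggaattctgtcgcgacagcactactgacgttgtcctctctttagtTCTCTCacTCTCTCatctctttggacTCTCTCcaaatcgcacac
cysl-1: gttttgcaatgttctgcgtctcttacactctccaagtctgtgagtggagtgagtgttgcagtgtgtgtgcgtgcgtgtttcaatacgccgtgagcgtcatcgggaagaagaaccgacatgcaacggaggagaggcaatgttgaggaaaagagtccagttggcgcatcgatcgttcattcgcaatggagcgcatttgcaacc

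**Figure D1:**
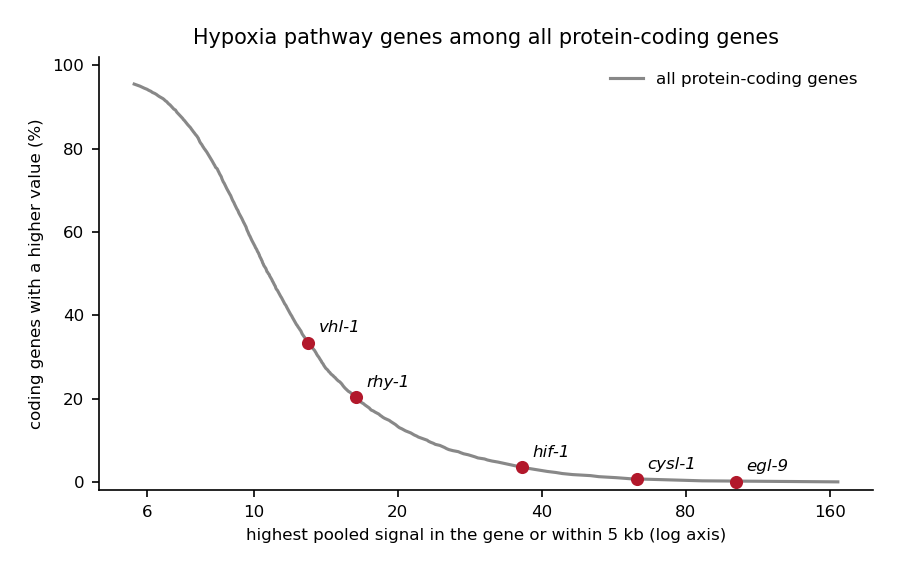
Each gene's highest pooled signal in the gene or within 5 kb (horizontal, log axis) against the percentage of protein-coding genes with a higher value (vertical), with all protein-coding genes as the grey line and the 5 hypoxia pathway genes as red points. egl-9 at 101.8, cysl-1 at 63.3 and hif-1 at 36.4 lie at the low right end of the line, and rhy-1 at 16.3 and vhl-1 at 13.0 lie further left, nearer the genome median of 10.7.

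All 5 genes had regions in the relaxed pooled list, as did 95.6% of protein-coding genes, so presence there did not set them apart. The height of the highest region did differ among the 5. Only 11 protein-coding genes, 0.0550% of the total, had a higher pooled region than egl-9. For cysl-1 that number was 123 genes (0.615%) and for hif-1 it was 712 genes (3.56%). For rhy-1, whose highest pooled region was 16.3, it was 4057 genes (20.3%), and for vhl-1, with 13.0, it was 6686 genes (33.5%). The windows of the 5 genes summed to 68.4 kb and held 34 pooled summits, 4.97 per 10 kb against 2.99 over the genome. The genome value covers all DNA, also far from genes, and not the windows of protein-coding genes, so it is an unlike baseline. The window of egl-9 was 18.4 kb and that of vhl-1 11.2 kb, against a median of 12.03 kb over protein-coding genes, and a longer window has more room for a summit.

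egl-9 encodes the oxygen-dependent prolyl hydroxylase of the pathway. The gene (WBGene00001178) runs from 10468517 to 10476915 on the plus strand of chromosome V, over 8399 bp with 5 annotated transcript starts. Its IDR peak covered chrV:10466634-10466989, with the summit 1705 bp upstream of the gene, and egl-9 was the nearest protein-coding start. By the 5 kb rule this summit also falls to other protein-coding genes, chw-1 among them. The next IDR summit beyond the window was 239 kb away. In replicate 1 the signal at this site was 37.6, the rank 5 of 30000. In replicate 2 it was 27.4, the rank 52 of 30000. In replicate 3 it was 33.8, the rank 13 of 13516. All 3 replicates placed the site high in their own lists.

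The egl-9 site was also high among EGL-27 peaks. Relative to the median signal of each replicate over the IDR peaks, it was 3.29 in replicate 1, 1.76 in replicate 2 and 2.45 in replicate 3. Of the 524 IDR peaks, 14, this one included, ranked at 52 or better in every replicate. That cutoff was the lowest replicate rank of the egl-9 site itself. The site was known to be high when the genes were chosen, so these values only describe it. Among IDR peaks, 4 overlapped a higher region in replicate 1, 53 in replicate 2 and 12 in replicate 3. A replicate region can overlap more than 1 IDR peak, so these numbers count peaks and not separate regions. Summits in the replicates lay within 61 bp of the pooled summit, at 1766, 1706 and 1760 bp upstream of egl-9 in replicates 1, 2 and 3. Replicate 3 listed a second, overlapping region with its summit 1558 bp upstream and a signal of 15.7, rank 230.

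**Figure D2:**
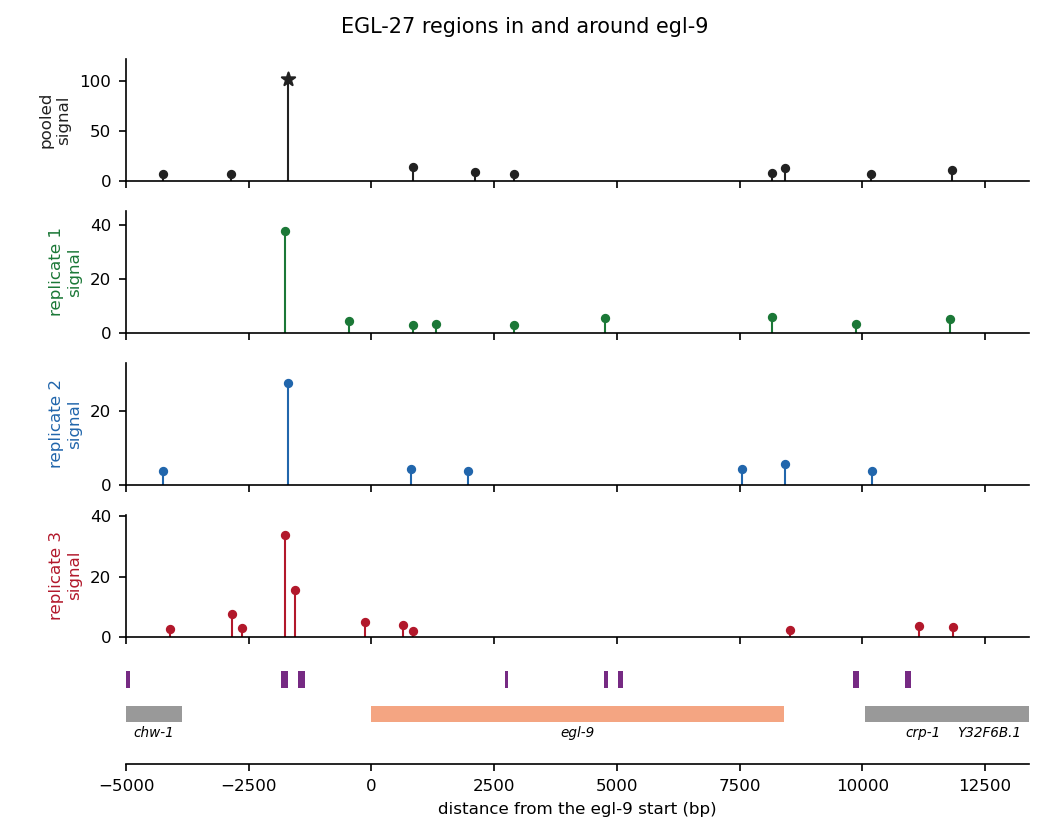
Listed regions from 5 kb upstream to 5 kb downstream of egl-9, with distance from the gene start in bp on the horizontal axis and the signal of each region, in the authors' unstated unit, on the vertical axis of each of the 4 lists, the IDR peak as a star, protein-coding genes in grey, egl-9 in orange and noncoding RNA genes in purple. The site at 1705 bp upstream stands at 101.8 in the pooled list and is the highest of the window in every replicate, while the other pooled regions lie between 6.92 and 14.1.

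The egl-9 summit lay inside 2 noncoding RNA genes that overlap on opposite strands. F22E12.10 (WBGene00199558) lies on the plus strand from 10466669 to 10466813 and F22E12.9 (WBGene00199121) on the minus strand from 10466680 to 10466824. Each is 145 bp long, and they overlap over 134 bp. Together they cover 156 of the 356 bp of the peak region. The summit was 12 bp inside the start of F22E12.9 and 143 bp inside F22E12.10, near its end. A further noncoding gene, F22E12.12, starts 1359 bp upstream of egl-9 on the minus strand, outside the IDR region. The summits of all 3 replicates also lay in exons of the same overlapping pair. Among IDR peaks, 52 summits (9.92%) lay in a gene of the annotated biotype ncRNA and 18 (3.44%) in such genes on both strands. Of the other 29476 pooled summits, 873 (2.96%) lay in any such gene. Noncoding genes of other biotypes, such as piRNA, were not counted.

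The rest of the egl-9 window held lower regions than the IDR peak. Of its 10 pooled regions, the 9 outside the IDR list had signals from 6.92 to 14.1. The highest, 14.1, lay in an intron 844 bp past the gene start, with overlapping regions of 3.01, 4.37 and 4.11 in replicates 1, 2 and 3. The 4.11 of replicate 3 had its summit at 644 bp. At 845 bp that replicate listed a second overlapping region of 2.04, near the bottom of its list (rank 13209 of 13516). The next pooled region, 13.6, lay just past the 3′ end of the gene, 8433 bp from its start. Overlapping regions had 5.62 in replicate 2 and 2.44 in replicate 3. The overlapping region of replicate 1, 5.85, had its summit inside the gene, 8169 bp from its start. That summit was nearer a separate pooled region of 8.10 at 8164 bp. No pooled summit lay closer to the annotated egl-9 start than the intronic region at 844 bp, while replicate 1 listed 4.40 at 458 bp upstream and replicate 3 listed 5.03 at 124 bp upstream. Farther upstream, at 2841 bp, replicate 3 listed 7.49 (rank 1277 of 13516), where the overlapping pooled region had 7.05 and replicates 1 and 2 listed no region.

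hif-1 encodes the bHLH-PAS transcription factor that EGL-9 hydroxylates. The gene (WBGene00001851) runs from 20780407 to 20785260 on the plus strand of chromosome V, over 4854 bp with 4 annotated transcript starts. Its IDR peak covered chrV:20778230-20778585, with the summit 1999 bp upstream in intergenic DNA, and hif-1 was the nearest protein-coding start. By the 5 kb rule this summit also falls to F38A6.4. The signal at the peak was 7.80 in replicate 1 (rank 1314 of 30000), 9.26 in replicate 2 (rank 2210 of 30000) and 15.7 in replicate 3 (rank 228 of 13516). Relative to the replicate medians over IDR peaks these were 0.682, 0.592 and 1.14. The site was above the median in replicate 3 and below it in replicates 1 and 2.

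The highest region near hif-1 was at a different site in each replicate. In replicate 1 it lay 3502 bp upstream, at chrV:20776727-20777082, with a signal of 14.6 (rank 163). There the pooled signal was 24.0 (rank 813), and replicates 2 and 3 had overlapping regions of 6.46 (rank 8405) and 4.68 (rank 3185). The nearest protein-coding start to that site was F38A6.4 and not hif-1. In replicate 2 the highest region lay 8776 bp past the hif-1 start, beyond the end of the gene, with 14.7 (rank 412). That site lies in an intron of Y44A6D.1, 319 bp upstream of tpan-1, and had 8.11 in replicate 1, 5.51 in replicate 3 and 22.8 in the pooled list. In replicate 3 the highest region was the IDR peak itself.

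**Figure D3:**
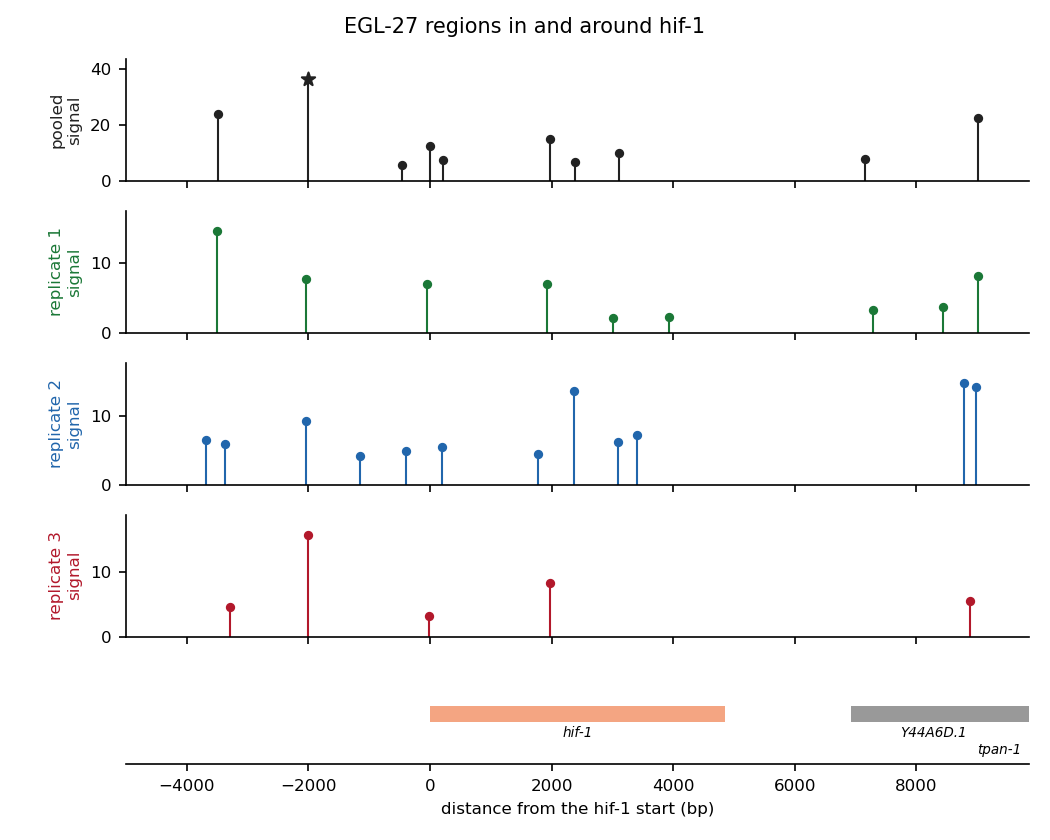
Listed regions from 5 kb upstream to 5 kb downstream of hif-1, with distance from the gene start in bp on the horizontal axis and region signal, in the authors' unstated unit, on the vertical axis of each of the 4 lists, the IDR peak as a star, hif-1 in orange and other protein-coding genes in grey. The highest region is at 3502 bp upstream in replicate 1 (14.6), at 8776 bp past the start in replicate 2 (14.7) and at 2000 bp upstream in replicate 3 (15.7).

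The start and body of hif-1 carried further regions in all 3 replicates. A pooled region of 12.6 had its summit at the annotated start. Near it, replicate 1 had 6.97 at 43 bp upstream (rank 2025 of 30000). Replicate 3 had 3.17 at 14 bp upstream (rank 6775 of 13516). Replicate 2 had 5.46 at 204 bp past the start (rank 13451 of 30000), nearer a separate pooled region of 7.46 at 220 bp. An intronic pooled region of 14.9 lay 96 bp upstream of an internal transcript start. Nearby regions had 7.004 in replicate 1 (rank 1988), 4.51 in replicate 2 (rank 20380) and 8.37 in replicate 3 (rank 1000). The replicate 2 value was below the median of its list, 5.21. Replicate 2 also listed a region of 13.6 (rank 543) in a coding exon 2374 bp past the start, where the pooled signal was 6.71 and replicates 1 and 3 listed no region.

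cysl-1 encodes the cysteine synthase-like protein that binds and blocks EGL-9. The gene (WBGene00007653) runs from 9952579 to 9954533 on the minus strand of chromosome X, over 1955 bp. Its IDR peak covered chrX:9958581-9958936, with the summit 4226 bp upstream of cysl-1. The same summit was 201 bp upstream of ZC506.1, a divergent gene that starts at 9958960 on the plus strand, so ZC506.1 and not cysl-1 was the nearest protein-coding start. A window of 2 kb would not have assigned the peak to cysl-1.

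Of the 3 IDR peaks, that of cysl-1 differed most between replicates. The signal was 2.32 in replicate 1 (rank 27667 of 30000, with a deposited −log10 q-value of 0.211), 36.5 in replicate 2 (rank 19 of 30000) and 18.6 in replicate 3 (rank 151 of 13516). Relative to the replicate medians over IDR peaks, these were 0.203, 2.33 and 1.34. The site was high in replicates 2 and 3 and near the bottom of the list in replicate 1, where only 7.78% of regions were lower. Among the 524 IDR peaks, 15 had a lower replicate 1 region or none. No other IDR peak had both a rank as high as its best and a rank as low as its worst.

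Closer to cysl-1 the pooled regions were lower than the IDR peak. At 1707 bp upstream the pooled signal was 10.3, with 9.70 in replicate 2 at 1778 bp (rank 1858 of 30000) and 2.81 in replicate 3 at 1586 bp. The nearest upstream region of replicate 1 was at 1212 bp, with 3.55. At the gene start, 19 bp upstream, the pooled signal was 5.75, and replicate 3 listed 6.11 at 233 bp upstream. Past the 3′ end, 2381 bp from the start, the pooled signal was 10.9, and the 5.17 listed by replicate 1 at 2349 bp was its highest for this gene. A further pooled region of 6.53 lay in an intron of nas-37, which encodes an astacin metalloprotease of the moult.

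rhy-1 encodes the membrane protein that restrains CYSL-1. The gene (WBGene00012324) runs from 9161379 to 9163448 on the plus strand of chromosome II, over 2070 bp. Its nearest IDR summit was 48.4 kb upstream, with a signal of 40.2. Replicate 1 listed a region of 13.6 at chrII:9160297-9160652, 904 bp upstream of rhy-1, with rank 205 of 30000. The pooled list gave 16.3 at the same place, rank 2090 of 30000, and replicates 2 and 3 listed no overlapping region. This region was high in replicate 1 alone.

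A second region lay at the rhy-1 start. Its pooled signal was 11.0 at 147 bp upstream (rank 6224 of 30000), and replicate 1 listed no region there. Replicate 2 had 4.63 at 177 bp (rank 19421 of 30000), below the median of its list, 5.21. Replicate 3 had 3.88 at 147 bp (rank 4645 of 13516). The upstream and start sites thus came from different replicates. The highest region of replicate 2 in the window, 6.79, lay 55 bp upstream of T23G7.3 and 6506 bp from the rhy-1 start.

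vhl-1 encodes the substrate-recognition subunit of the ubiquitin ligase that removes hydroxylated HIF-1. The gene (WBGene00006922) runs from 11307356 to 11308518 on the plus strand of chromosome X, over 1163 bp. Its nearest IDR summit was 157 kb away, the farthest of the 5 genes, against a median of 83.2 kb over 19973 nuclear protein-coding genes. At its start the pooled signal was 9.01, 30 bp into the gene, and replicate 2 listed 4.04 at 72 bp upstream. Replicates 1 and 3 listed no region there.

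The highest region assigned to vhl-1 lay beside its neighbour. It was 236 bp upstream of F08G12.5 and 3165 bp from the vhl-1 start, with a pooled signal of 13.0. The signal was 9.93 in replicate 2 (rank 1710 of 30000) and 4.36 in replicate 3 (rank 3687 of 13516), and replicate 1 listed none. The only region of replicate 1 in the vhl-1 window had 2.89. Pooled regions also lay in introns of F08G12.1 (6.25) and F08G12.5 (6.47).

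**Figure D4:**
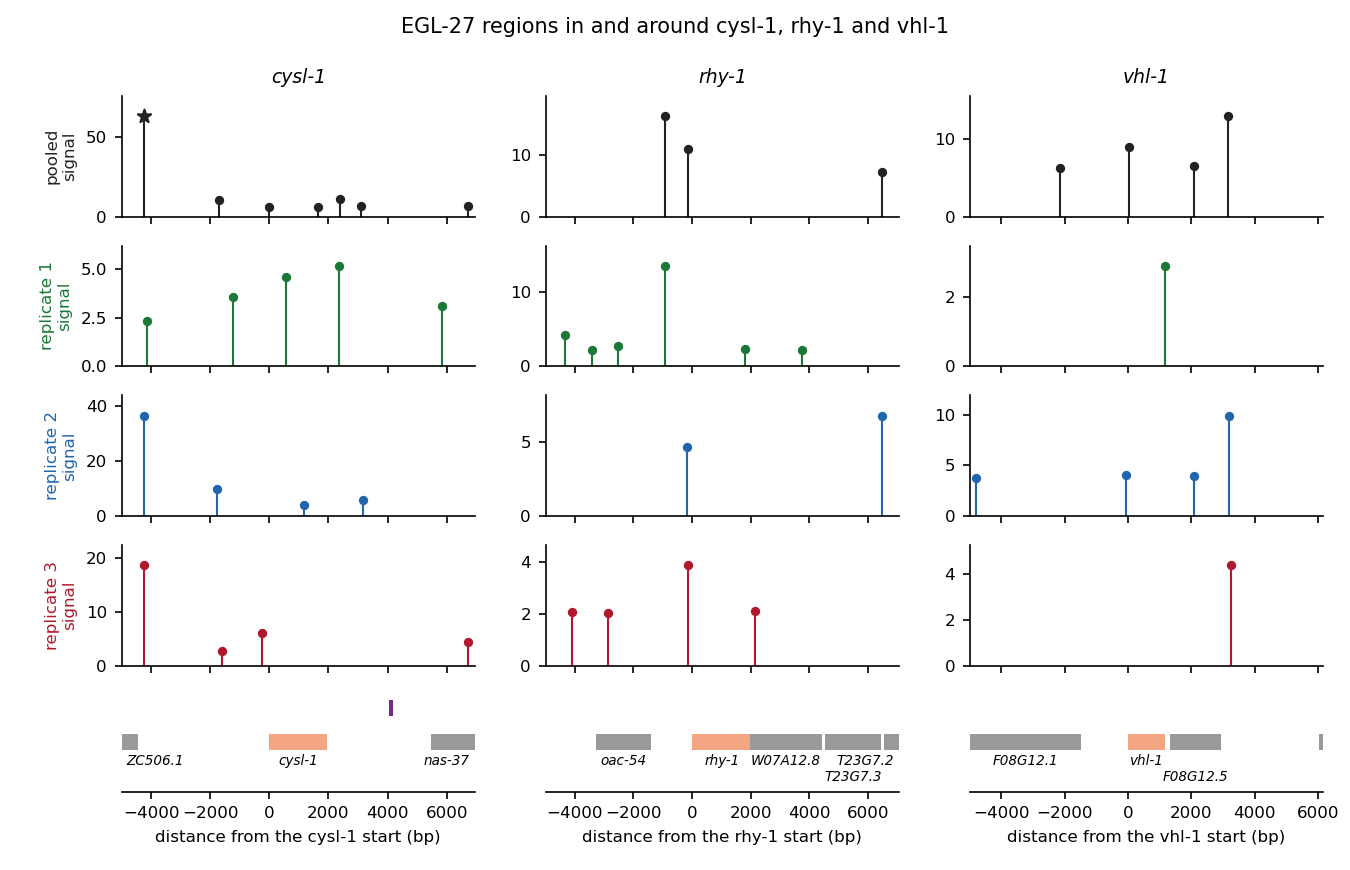
Listed regions from 5 kb upstream to 5 kb downstream of cysl-1, rhy-1 and vhl-1 (columns), with distance from the gene start in bp on the horizontal axis and region signal, in the authors' unstated unit, on vertical axes that differ between panels, the IDR peak as a star, the named gene in orange, other protein-coding genes in grey and a noncoding RNA gene in purple. The cysl-1 peak is at 2.32 in replicate 1 and 36.5 in replicate 2, the highest rhy-1 region of replicate 1 (13.6) has no counterpart in replicates 2 and 3, and the highest vhl-1 region (13.0 pooled) lies 236 bp upstream of F08G12.5.

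Of the 5 genes, egl-9 alone had its highest region at the same site in all 3 replicates. How common this was over all protein-coding genes was not counted, so it is not shown to be particular to egl-9. Taking the 524 highest regions of each replicate, replicate 1 had one near egl-9, hif-1 and rhy-1, beside 5.91% of protein-coding genes. Replicate 2 had one near egl-9, hif-1 and cysl-1, beside 5.67%, and replicate 3 near the same 3 genes, beside 5.84%. Only egl-9 and hif-1 had such a region in every replicate, beside 1.92% of protein-coding genes, and at hif-1 these were different sites. Over all IDR peaks, 142 of 524 (27.1%) overlapped one of the 524 highest regions in every replicate.

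**Figure D5:**
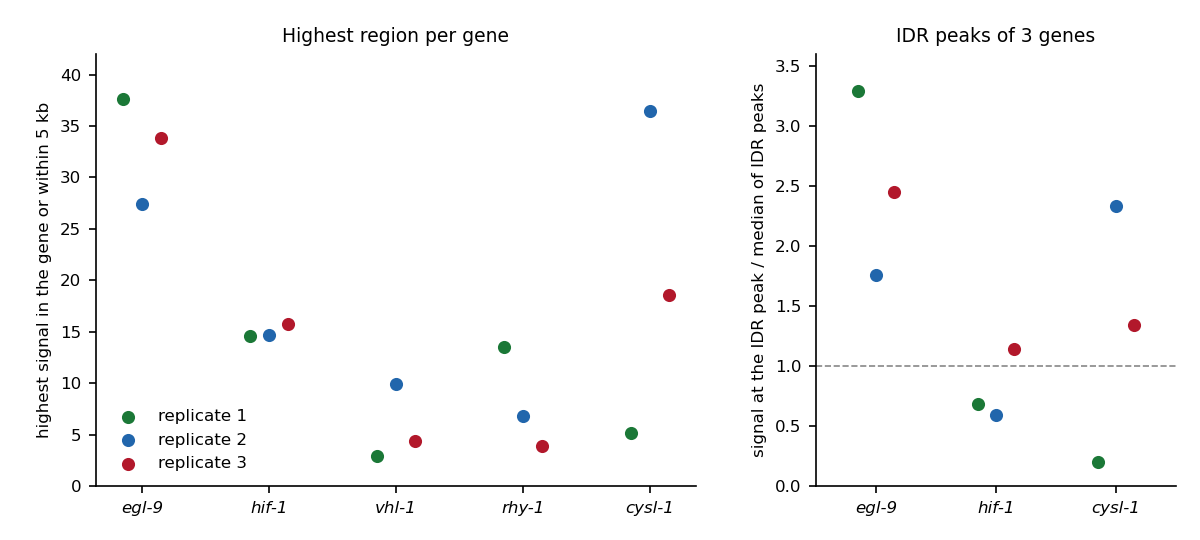
Left, the highest signal in each gene or within 5 kb, in the authors' unstated unit, with 1 point per replicate. Right, the signal at the IDR peaks of egl-9, hif-1 and cysl-1 divided by the median over IDR peaks in the same replicate, where egl-9 is above 1 (dashed line) in all 3 replicates, hif-1 in replicate 3 and cysl-1 in replicates 2 and 3, with replicate 1 at 0.203.

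None of the letter strings searched occurred in all 3 summit windows. GAGAGA, counted on both strands with overlapping matches, occurred 6 times at egl-9, 4 times at hif-1 and 0 times at cysl-1. It was present in 56.5% of the 201-base windows of all IDR peaks and in 17.3% of those of the other pooled regions. At egl-9 every match began 20 to 90 bp from the pooled summit on the side of egl-9, outside the noncoding pair. Windows of the same length around the replicate 1 and replicate 3 summits held 3 matches each. At hif-1 a match began 31 bp from the summit on the far side from the gene, and the others 57, 65 and 83 bp towards it. The rhy-1 region of replicate 1 also held 0 matches.

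HIF-1 is known to bind the letters ACGTG or GCGTG, the core of the hypoxia response element. The egl-9 window held 2 of ACGTG and 2 of GCGTG, the hif-1 window 2 of ACGTG and 0 of GCGTG, and the cysl-1 window 0 of ACGTG and 2 of GCGTG. Both hif-1 matches were the strands of 1 palindrome, CACGTG, the E-box, 90 bp from the summit. Among all IDR windows ACGTG was present in 26.3%, GCGTG in 37.02% and CACGTG in 11.3%, against 19.3%, 14.2% and 4.15% of other pooled windows. The GATA-type letters AGATAG occurred once at egl-9 and are in 15.1% of IDR windows, against 6.84% of other pooled windows. The other GATA-type letters searched, AGATAA and TGATAA and TGATAG, did not occur in the 3 windows, nor did CCGCCC or TAATTA. GC content was 42.8% at egl-9, 49.8% at hif-1 and 51.2% at cysl-1, against medians of 47.3% over IDR windows and 37.8% over other pooled windows. Soft-masked repeat letters made up 33.3% of the egl-9 window, 17.9% of the hif-1 window and 9.95% of the cysl-1 window, against medians of 12.9% over IDR windows and 22.4% over other pooled windows. The egl-9 window therefore had lower GC and more repeat letters than the median IDR window.

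The wider pathway was described by 7 gene lists. In the group of HIF-1 and its regulators, 3 of 6 genes had an IDR summit, and these were egl-9, hif-1 and cysl-1. None of the 5 genes of the VHL ubiquitin ligase had one, nor any of 8 oxygen-sensing guanylate cyclase and globin genes. Of 5 bHLH-PAS factor genes, only hif-1 had one. An IDR summit was also found at 1 of 11 other 2-oxoglutarate dioxygenase genes and at 2 of 18 cysteine and hydrogen sulfide genes, cysl-1 itself and cysl-2. Of 11 genes known to depend on HIF-1, 3 had one, and these were egl-9 itself, nhr-57 and cysl-2. Over all lists without the 5 genes, 3 of 49 genes had an IDR summit (6.12%), near the 6.07% of all protein-coding genes.

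Those 3 genes were nhr-57, cysl-2 and jmjd-1.2. nhr-57, a nuclear hormone receptor gene induced by HIF-1, had its peak 220 bp upstream at chrV:4131491-4131846, with a pooled signal of 29.6 (rank 492) and replicate signals of 15.3, 6.95 and 9.61. cysl-2, a relative of cysl-1 that detoxifies cyanide, had its peak 2540 bp upstream at chrII:14496813-14497168, with a pooled signal of 38.8 (rank 257) and replicate signals of 14.5, 15.9 and 11.5. The nearest protein-coding start to that peak was dhs-8. jmjd-1.2, a histone demethylase gene, had its peak 504 bp upstream at chrIV:4660309-4660664, with a pooled signal of 30.8 (rank 449) and replicate signals of 4.13, 7.52 and 16.1. Here the nearest start was F29B9.11. Of these 3, cysl-2 had a region among the 524 highest in every replicate. All 3 had lower pooled signals than egl-9 and cysl-1. The cysl-2 peak was above that of hif-1 (36.4, rank 308), and those of nhr-57 and jmjd-1.2 were below it.

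The pattern most like egl-9 over the 3 replicates was that of a peak on chromosome IV shared by 7 genes, by the Euclidean distance of log2 highest signals among 1207 genes with an IDR summit. The distance was 0.22 for Y17G9B.4, Y17G9B.5, cyc-2.1, fbxb-77 and rpl-20, and tctn-1 and timm-17B.1 tied with them because all take the same regions. That peak had a pooled signal of 95.7 (rank 10) and replicate signals of 36.97, 28.4 and 29.3, close to the 37.6, 27.4 and 33.8 of egl-9. The next peak was shared by nhr-3 and ram-5, which tied at a distance of 0.34, with a pooled signal of 104.5 (rank 5).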

How the data were processed

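EGL-27 ChIP-seq region lists from 3 biological replicates of L1 larvae, numbered by the labels, were read as 1 group. Per the file headers and listings deposited with them, the authors made a relaxed list of peaks and background for each replicate and for the replicates pooled, each against 1 shared control alignment, and 1 list past an IDR threshold. Which aligner and peak caller were used is not given in the sources used here. A region's signal is the authors' deposited height relative to control, on an unstated scale. The deposited −log10 q-value reached its ceiling in every IDR peak, so ranks use the signal. Chromatin was sonicated with a microtip, per the labels. Depth per sample is unknown, so no counting interval is given.

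Regions lie on build ce11, in 1-based coordinates, with genes from Ensembl release 115 (WBcel235) and sequence from RefSeq, and 0 regions ran past a chromosome end. A summit is the region start plus the deposited offset. Regions had a nearly fixed width per list, so a summit is close to the region's centre. Sites matched between lists when regions overlapped by at least 1 bp, taking the highest. The lists on build ce10 and the control alignment were not used here.

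The genes, the 7 pathway lists and the 10 motifs were chosen with earlier results of these data known, and no chance test was run. With 1 group, no comparison between conditions is possible. Genes named were the 5 pathway genes, genes at IDR or pooled summits in their windows (of these, some are not reported here), the nearest start to an IDR summit there, list genes with an IDR summit, and the 5 genes nearest to egl-9 by replicate signals. tpan-1, T23G7.3, F38A6.4, dhs-8, F29B9.11, F22E12.12, tctn-1, timm-17B.1, nhr-3 and ram-5 were named after their values were seen. sqrd-2 and mpst-5 did not match the annotation by name. Assignment and motif search were tested on simulated data. Alternatives were other flanks, region overlap in place of the summit, upper parts of the lists, other motif windows, and peaks without each replicate. Python 3.11.15 and matplotlib 3.10.9 were used.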

Additional observations from a re-analysis of the deposited data

How the results depend on the processing

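The number of IDR peaks assigned to the pathway genes depended on the window. With flanks of 2 kb, 2 were assigned (egl-9 and hif-1), and with flanks of 10 kb or with any overlap of the region, 3. The share of all protein-coding genes with an IDR summit was 3.48% at 2 kb and 10.03% at 10 kb, against 6.07% at 5 kb. Above the median of the IDR list lay 2 of the 3 peaks, and above the median of the pooled list lay 19 of the 34 pooled regions. Pooled regions numbered 23 at 2 kb and 49 at 10 kb.

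Keeping only IDR peaks among the 524 highest regions of both other replicates, with IDR not rerun, left 1 to 2 peaks, and as many genes. Without replicate 1, egl-9 and cysl-1 kept theirs, without replicate 2 only egl-9 did, and without replicate 3 only egl-9 did. These sets held 216, 200 and 187 peaks. The main count of 3 peaks used no such rank, so this rule was stricter. The hif-1 site ranked 1314 in replicate 1 and 2210 in replicate 2, so it failed whichever replicate was left out. The fall from 3 peaks therefore does not measure dependence on any 1 replicate. GAGAGA was in 2 of the 3 windows at 50, 100 and 150 bp either side. No paired analysis was possible because there is 1 group. The signal scale and depth are unknown and the control was not used, so a region absent from a list may lie under its cutoff.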
